A study of Rattus norvegicus and Bos taurus with 6 samples.

Results

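The genes described here are 6 adipokines with Apln (a peptide hormone that fat also secretes) and the receptors of adiponectin and leptin: Adipoq, Lep, Rarres2, Retn, Cfd, Nampt, Apln, Adipor1, Adipor2 and Lepr. They were taken by symbol, 10 of the 38697 genes in the rat Parse tables and of the 25629 genes in the rat 10x Genomics table. In cow, 9 of the 10 matched a symbol among 36075 genes, and adiponectin was not analysed there because no gene of the table matched its symbol. In each rat library 9 of the 10 had at least 10 unique molecular identifiers (UMIs, a count of captured RNA molecules), as did 8 in cow, with Apln under that minimum in every rat library and RETN in cow.

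The study sequenced RNA of single nuclei from snap-frozen fat, with 1 library per condition. The rat depots came from male Dahl salt-sensitive rats (SS/HsdMcwiCrl) on a normal diet, housed at 22 °C. The white depots were mesenteric perivascular fat (mesPVAT) and retroperitoneal (RP) fat. The brown depots were thoracic aortic perivascular fat (taPVAT) and subscapular brown fat (BAT). In the Parse isolation taPVAT was centrifuged more slowly than the rat white depots, so depot and centrifugation cannot be told apart between them. The cow depot was flank subcutaneous white fat (WAT) of a female Holstein in lactation. All these went through the Parse workflow, in which fixed nuclei are barcoded by repeated pooling and splitting, and mesPVAT was also run on 10x Genomics droplets, from DAPI-sorted nuclei of another isolation and an earlier batch, so that chemistry, isolation, batch and gene models cannot be told apart. Ages were not given in the sources used here.

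Adipokines are proteins that fat cells release into the blood or the nearby tissue. Adiponectin, the product of Adipoq, acts on the liver, muscle and vessel wall through its receptors Adipor1 and Adipor2 and favours insulin sensitivity and fatty acid oxidation, while leptin, the product of Lep, is made in proportion to fat stores and acts through Lepr, a cytokine receptor best known in the hypothalamus. White adipocytes, which store lipid in a single droplet, are the classical source of leptin, and brown adipocytes, which burn lipid for heat, make little of it. Perivascular fat surrounds blood vessels, so that its adipokines can reach the vessel wall directly.

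The libraries differed in depth. They held between 2297 nuclei in cow WAT and 5887 in the 10x library, and between 845316 and 16827260 UMIs in all. The median nucleus held 161 UMIs in the 10x library, 346 in the Parse library labelled mesPVAT and 213 in that labelled RP fat. Nuclei were deeper in taPVAT (1246), BAT (1706) and cow WAT (3530). Under the mesPVAT label, nuclei held 304 genes at the median and at most 41374 UMIs, and under the RP fat label 197 genes and at most 5611 UMIs. In depth, genes and largest nucleus, this order of the white Parse libraries is the reverse of that in the study's account of these depots, as an exchange of the files would give, and whether they were exchanged was not tested. They are called mesPVAT and RP fat here by their deposited labels only. With the files exchanged, each Parse value given for mesPVAT would be one of RP fat and the reverse, while statements that set both white libraries against both brown ones would stand. No barcode was shared between any pair of libraries, which would hold with exchanged files too and does not bear on the labels. A list of 10 general adipocyte markers was detected in full in every rat library (9 genes matched in cow) and summed to between 1644 CPM (UMIs per 1000000 UMIs) in the library labelled RP fat and 10224 CPM in the 10x library. A list of 8 brown adipocyte markers summed to 6776 CPM in taPVAT and 8127 CPM in BAT against 686.3 and 867.1 CPM in the libraries labelled mesPVAT and RP fat, with Elovl3 at 0 in BAT. A level is given here as CPM, the UMIs of a gene summed over all nuclei and divided by all UMIs of the library, with an exact 95% Poisson interval. All intervals cover counting error only, and with 1 library per condition no test between conditions could be made. In such sums, fewer cells of a type and less RNA per cell cannot be told apart.

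Of the rat Parse libraries, leptin was highest in CPM in the one labelled mesPVAT, and its level also divided the white libraries. Lep stood at 80.3 CPM (67.2 to 95.1; 133 UMIs) in the library labelled mesPVAT and at 14.2 CPM (7.34 to 24.8; 12 UMIs) in the library labelled RP fat. It stood at 31.2 CPM (26.5 to 36.4; 159 UMIs) in taPVAT and 25.0 CPM (21.3 to 29.2; 158 UMIs) in BAT. In CPM, the mesPVAT level was thus above both brown depots and the RP level was the lowest, an order of the white depots that would turn with exchanged files. Of all genes tested, 50.6% were at least 2-fold higher in CPM in both white libraries than in both brown ones. The gap of Lep between mesPVAT and the brown depots depends on the scaling, as given below. From the highest down, mesPVAT was 2.58-fold above taPVAT (2.03 to 3.26), while taPVAT over BAT (1.25-fold, 0.994 to 1.56) and BAT over RP fat (1.76-fold, 0.981 to 3.48) lay within counting error. Adipoq, by contrast, was highest in BAT at 169.5 CPM (159.5 to 180), followed by taPVAT at 142.5 CPM (132.4 to 153.3), mesPVAT at 73.0 CPM (60.6 to 87.3) and RP fat at 39.0 CPM (26.9 to 54.8). Each step of that order was beyond counting error, and the step from BAT to taPVAT was small (1.19-fold, 1.08 to 1.31).

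Retn, Rarres2, Nampt and Cfd, like Adipoq, were higher in both brown depots than in both white ones, as were 17.1% of the 28177 genes with at least 10 UMIs in these libraries. Retn encodes resistin, a cysteine-rich hormone made by adipocytes in rodents and mainly by myeloid cells in humans. Its level was 164.5 CPM (153.6 to 176; 839 UMIs) in taPVAT and 174.6 CPM (164.4 to 185.2; 1103 UMIs) in BAT, against 41.0 CPM (31.9 to 52.0; 68 UMIs) in mesPVAT and 13.0 CPM (6.5 to 23.3; 11 UMIs) in RP fat. TaPVAT was 4.01-fold above mesPVAT (3.13 to 5.21), and mesPVAT was 3.15-fold above RP fat (1.66 to 6.62). Resistin therefore had the widest gap between brown and white of the 10 genes in the upward direction. Rarres2 encodes chemerin, which attracts immune cells and regulates adipocyte differentiation and vascular tone. It stood at 68.8 CPM (61.8 to 76.4) in taPVAT, 66.0 CPM (59.8 to 72.7) in BAT, 20.5 CPM (14.2 to 28.7) in mesPVAT and 14.2 CPM (7.34 to 24.8) in RP fat, so the brown libraries differed by less than counting error (1.04-fold, 0.902 to 1.21) and BAT was 3.22-fold above mesPVAT (2.27 to 4.71).

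Nampt makes the nicotinamide mononucleotide of the NAD salvage pathway and is also secreted, under the name visfatin. Its level was 147.8 CPM (137.5 to 158.8; 754 UMIs) in taPVAT, 135.5 CPM (126.6 to 144.9; 856 UMIs) in BAT, 39.2 CPM (30.3 to 50.0; 65 UMIs) in mesPVAT and 36.7 CPM (24.9 to 52.1; 31 UMIs) in RP fat. BAT was 3.45-fold above mesPVAT (2.68 to 4.52), and the white pair differed by less than counting error (1.07-fold, 0.687 to 1.70). Cfd encodes adipsin, the serine protease of the alternative complement pathway. It had the smallest gap of these 4 genes, with 78.4 CPM in taPVAT and 72.0 CPM in BAT against 34.4 CPM in mesPVAT and 24.8 CPM in RP fat (BAT over mesPVAT 2.09-fold, 1.59 to 2.81). Apln encodes apelin, the ligand of the vascular receptor Aplnr. It was barely detected, with 9 UMIs in mesPVAT, 3 in RP fat, 2 in taPVAT and 9 in BAT, and no order can be read from counts of this size.

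**Figure D1:**
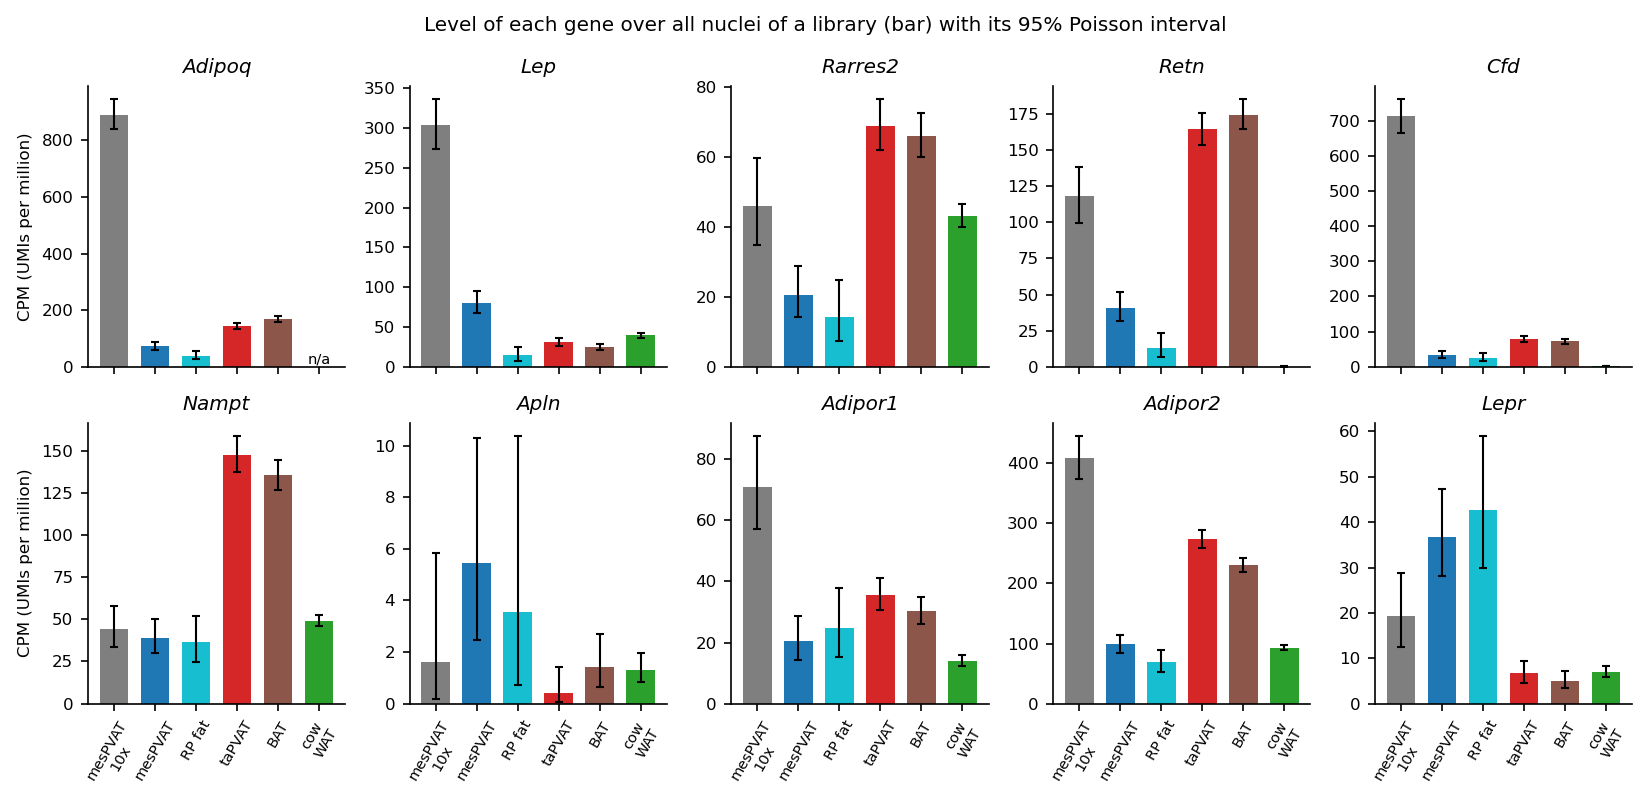
Level of each gene in each library in CPM (UMIs of the gene scaled by all UMIs of the library, linear axes that differ between panels), with bars for the sum over all nuclei, error bars for the 95% Poisson interval and n/a where no gene matched. Rarres2, Retn, Cfd, Nampt and Adipor2 are higher in taPVAT and BAT than in both white rat Parse libraries, Lepr is lower, and Lep is highest of the rat Parse libraries in the one labelled mesPVAT.

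The stretch just before the start of transcription is where these genes carry their proximal promoters, and the sequences of leptin and of the 3 secreted factors that stood past 2-fold higher in brown fat and have an entry in the promoter table are shown for comparison. They are the 250 bases before the RefSeq start of the promoter entry on GRCr8, 5′ to 3′ on the strand of the gene. This start can lie inside the gene record. The Rarres2 record ends at 78856652, so most of its window lies within the gene. The Retn record starts at 6508653, so part of its window does. The Lep record starts at 58626529, so the last bases of its window do. The Cfd record ends at 10465496, just outside its window. Capitals mark matches, on either strand, to TTGCGCAA (the C/EBP palindrome), TTGCAAT (a C/EBP site), AGGTCA (a nuclear receptor half-site), CCAAT (the CCAAT box) and GGGCGG (the GC box), where a match on the other strand reads as the reverse complement.
Lep, chr4:58626288-58626537, plus strand: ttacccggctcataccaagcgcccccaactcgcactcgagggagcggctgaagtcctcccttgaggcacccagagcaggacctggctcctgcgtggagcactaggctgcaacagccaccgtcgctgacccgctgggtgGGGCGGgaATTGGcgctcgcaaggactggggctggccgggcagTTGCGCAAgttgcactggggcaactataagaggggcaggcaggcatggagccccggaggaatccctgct
Retn, chr12:6508524-6508773, plus strand: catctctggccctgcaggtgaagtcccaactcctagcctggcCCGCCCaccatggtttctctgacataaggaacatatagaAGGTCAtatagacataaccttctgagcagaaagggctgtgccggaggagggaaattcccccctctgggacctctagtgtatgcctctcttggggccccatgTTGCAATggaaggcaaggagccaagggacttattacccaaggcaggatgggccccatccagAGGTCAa
Rarres2, chr4:78856409-78856658, minus strand: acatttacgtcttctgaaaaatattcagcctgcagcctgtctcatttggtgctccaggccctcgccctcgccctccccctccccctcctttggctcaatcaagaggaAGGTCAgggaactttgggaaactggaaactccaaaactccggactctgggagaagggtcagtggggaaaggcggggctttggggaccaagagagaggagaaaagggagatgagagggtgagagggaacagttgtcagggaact
Cfd, chr7:10465497-10465746, minus strand: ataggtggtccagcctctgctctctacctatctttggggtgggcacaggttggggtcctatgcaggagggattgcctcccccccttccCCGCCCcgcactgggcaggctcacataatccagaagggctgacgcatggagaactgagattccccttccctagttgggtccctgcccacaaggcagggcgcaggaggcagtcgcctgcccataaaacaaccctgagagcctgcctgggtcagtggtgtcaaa
The palindrome stood in the Lep window, at position -69 from the start, and in no window of the other 8 genes with an entry. It occurs in 0.140% of all 33469 windows of this length. The Retn window held an AGGTCA at -169 and another at -7, and TTGCAAT at -68, a word found in 1.88% of windows. AGGTCA also stood in the Rarres2 window and is found in 14.1% of windows. The Cfd window held a GC box only, which 30.5% of windows hold, and the CCAAT word of the Lep window occurs in 34.0%. These are matches of letters and were not tested as binding sites.

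Between brown and white rat fat, 5 of the 10 genes were at least 2-fold higher in brown, counted as the lower of taPVAT and BAT over the higher of mesPVAT and RP fat. They were Rarres2, Retn, Cfd, Nampt and Adipor2, against 4.34% of the 28177 genes with enough UMIs. Cfd was just inside the threshold at 2.09-fold, and under it in the second sublibrary alone (log2 0.67), and Adipoq just outside it at 1.95-fold. In the other direction, Lepr and Apln were at least 2-fold higher in white fat, where 50.6% of all genes were. For Apln this rests on 3 UMIs in RP fat and 9 in BAT (2.49-fold, 0.434 to 9.98), within counting error. The median log2 difference of these 10 genes was 1.02, beside -1.01 for all genes tested. Among the 13860 genes with at least 10 UMIs in each of these libraries the median shift was -0.75. Scaling by the median of ratios, which centres the genes found in all of these libraries, gave 7 genes at least 2-fold higher in brown, with Adipoq (log2 2.33) and Adipor1 (log2 2.16) added, and 0 at least 2-fold higher in white. Of all 28177 genes, 27.8% and 14.2% were past 2-fold in these directions under that scaling. There Apln no longer separated the groups and Lepr stayed lower in brown by 0.84 on the log2 scale. Lep separated the groups under neither scaling (log2 0). The median-of-ratios scaling divides CPM by 1.58 in mesPVAT, 2.20 in RP fat, 0.616 in taPVAT and 0.505 in BAT. So divided, the Lep levels of mesPVAT, taPVAT and BAT lie close together.

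The brown depots differed little from each other. Of the 10 genes, 9 had a ratio of taPVAT to BAT between 0.841 and 1.32. Apln alone was past 2-fold, higher in BAT, as were 2.48% of 23157 genes (8.52% were past 2-fold in the other direction), and its ratio of 0.275 rests on 2 and 9 UMIs (0.029 to 1.33). Between the white depots, Lep (5.66-fold, 3.13 to 11.2) and Retn (3.15-fold) were at least 2-fold higher in mesPVAT, as were 5.45% of 24058 genes, and 0 were at least 2-fold higher in RP fat, as were 13.1% of genes. With exchanged files these genes would be higher in RP fat instead. Plin1, the lipid droplet coat protein used here to mark adipocytes, moved with these levels, at 1287 CPM in mesPVAT, 478 in RP fat, 2435 in taPVAT and 2501 in BAT. BAT was 1.94-fold above mesPVAT in Plin1 and 5.23-fold above RP fat.

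The share of nuclei with a UMI followed the depth of the library as well as the level. For Adipoq, 24.4% of BAT nuclei, 18.8% of taPVAT nuclei, 3.67% of mesPVAT nuclei and 1.14% of RP nuclei held at least 1 UMI. When each nucleus was thinned to 200 UMIs, leaving out 476 mesPVAT and 1302 RP nuclei that held fewer, these shares came to 3.06%, 2.62%, 1.39% and 0.781%, in the same order. For Lep, thinning turned the shares of 4.71% in BAT, 4.43% in taPVAT and 3.63% in mesPVAT to 0.395%, 0.532% and 1.49%, so that mesPVAT held the largest share at equal depth. Thinning sets nuclei to an equal total, as CPM does for libraries, so it is not separate from the CPM order and shares its dependence on the scaling. The share for Nampt was 2.11% in BAT and 2.14% in taPVAT at equal depth, and 0.758% in mesPVAT and 0.575% in RP fat.

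To set adipocyte nuclei beside each other, nuclei were taken that held a UMI of Plin1 and none of Ptprb (endothelium), Pdgfra (stromal progenitors), Ptprc (leukocytes) or Notch3 (mural cells). There were 532 such Plin1-only nuclei in mesPVAT, 229 in RP fat, 1118 in taPVAT and 1386 in BAT. The other adipocyte markers summed to 5641 CPM in those of mesPVAT and 2292 CPM in those of RP fat, against 9489 CPM in taPVAT and 9388 CPM in BAT. In nuclei with a single other marker the same list summed to 1174 to 1742 CPM in mesPVAT and 674 to 1024 CPM in RP fat. Ptprb-only, Pdgfra-only and Notch3-only nuclei of both held more of their own list. Ptprc-only nuclei did not, with 476.5 CPM of the immune list without Ptprc beside 1174 CPM of the adipocyte list in mesPVAT. In RP fat these were 181.8 and 772.5 CPM, so the Ptprc class is given by its marker only in the white libraries. The brown list summed to 9460 and 10784 CPM in the Plin1-only nuclei of taPVAT and BAT and to 583.5 CPM in those of mesPVAT, within the 534.6 to 782.8 CPM of its other classes.

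In CPM within Plin1-only nuclei, some adipokines kept a gap between the brown libraries and the one labelled mesPVAT and others did not. Other scalings were not applied to these folds between libraries. Lep was at 227.4 CPM (181 to 282; 83 UMIs) in mesPVAT, 41.5 CPM (33.6 to 50.7; 95 UMIs) in taPVAT and 32.3 CPM (26.4 to 39.1; 105 UMIs) in BAT. The level in the library labelled mesPVAT, which would be RP fat with exchanged files, was 5.48-fold above taPVAT (4.03 to 7.44) and 7.04-fold above BAT (5.22 to 9.48), a wider gap than over all nuclei. Nampt showed the opposite order, at 21.9 CPM (9.46 to 43.2; 8 UMIs) in mesPVAT, 188.2 CPM (431 UMIs) in taPVAT and 155.6 CPM (506 UMIs) in BAT. Its BAT level was 7.1-fold above mesPVAT (3.58 to 16.5), and the taPVAT level 8.59-fold (4.32 to 20.02), on a mesPVAT sum of few UMIs.

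In CPM, Adipoq did not keep its gap to the library labelled mesPVAT. Over all nuclei its brown over white fold rose from log2 0.96 in CPM to 2.33 with median-of-ratios scaling. That scaling was not applied to Plin1-only nuclei, so whether the gap is lost under it was not tested. It was at 183.5 CPM (142 to 233; 67 UMIs) in the Plin1-only nuclei of mesPVAT, 170.3 CPM (154 to 188; 390 UMIs) in taPVAT and 204.8 CPM (190 to 221; 666 UMIs) in BAT. The 3 intervals overlapped in part, with BAT over mesPVAT at 1.12-fold (0.867 to 1.46) and taPVAT over mesPVAT at 0.928-fold (0.714 to 1.22). Cfd was likewise near 1, with BAT over mesPVAT at 1.13-fold (0.771 to 1.72). Retn stayed higher in brown, by 2.15-fold in taPVAT (1.53 to 3.11) and 2.31-fold in BAT (1.65 to 3.32) over the 98.6 CPM (36 UMIs) of mesPVAT, although this ratio, taken as the lower brown library over mesPVAT, was 3.98 in the first sublibrary alone and 1.55 in the second. Rarres2 was 1.99-fold higher in BAT (1.19 to 3.61) and 2.10-fold in taPVAT, and Adipor2 1.48-fold (1.16 to 1.91) and 1.77-fold.

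Set against both white depots, Retn and Nampt were at least 2-fold higher in the Plin1-only nuclei of both brown ones (3.37% of 18993 genes were) and Lepr was lower (32.3%). Set against mesPVAT only, Lep and Lepr were at least 2-fold higher in mesPVAT than in both brown depots, as were 40% of 18436 genes, and Retn and Nampt were lower, with 8.92% of genes in that direction. The Plin1-only sums of RP fat were small, with 5 UMIs of Adipoq, 5 of Lep, 4 of Nampt, 2 of Cfd and 1 each of Retn and Rarres2, so its intervals are wide. BAT over RP fat was 3.29-fold for Adipoq (1.40 to 10.2) and 3.12-fold for Nampt (1.21 to 11.5). It was 18.3-fold for Retn (3.27 to 722) and 6.57-fold for Rarres2 (1.17 to 260). Lep (0.519-fold, 0.215 to 1.63) and Cfd (3.61-fold, 0.989 to 29.9) lay within counting error.

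**Figure D2:**
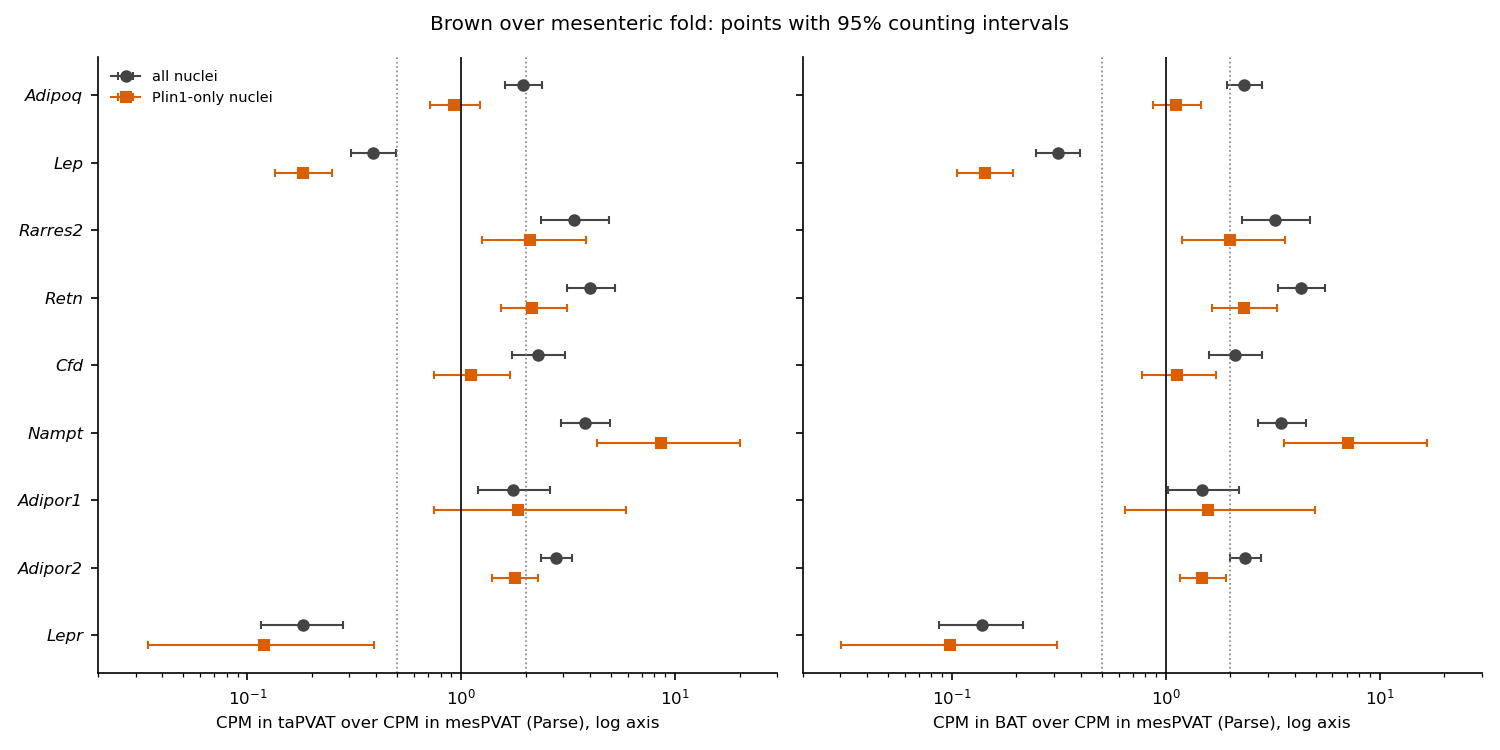
Ratio of the CPM in taPVAT (left) and in BAT (right) to the CPM in mesPVAT, all from Parse libraries, on a log axis, for all nuclei (circles) and Plin1-only nuclei (squares), with 95% counting intervals and dotted lines at 2-fold up and down. Adipoq and Cfd lie above 1 over all nuclei and near 1 in Plin1-only nuclei, while Lep moves further below 1 and Nampt further above it.

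The nuclei that held adipokine UMIs were largely Plin1-positive in brown fat. In BAT, 607 of 659 Adipoq-positive nuclei (92.1%) also held Plin1, as did 95.7% of the Retn-positive and 91.0% of the Nampt-positive nuclei, where 69.1% of all BAT nuclei did. In taPVAT these shares were 89.8%, 90.7% and 88.3%, beside 60.4% of all nuclei. In mesPVAT, 76.4% of the Lep-positive, 66.7% of the Adipoq-positive and 66.1% of the Retn-positive nuclei held Plin1, beside 22.0% of all nuclei, and Nampt was lower at 31.6% (18 of 57). In RP fat, 6 of 32 Adipoq-positive nuclei held Plin1 (18.8%), beside 9.59% of all nuclei, so most Adipoq-positive nuclei of this shallow library held no Plin1 UMI. Adipoq-positive nuclei were deeper than negative ones, at medians of 2838 and 1412 UMIs in BAT, 2452 and 1060 in taPVAT and 850 and 338 in mesPVAT. These shares were not matched for depth, and its part in them was not tested.

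Compared with nuclei that held a single other marker, 7 of 9 genes with enough UMIs were at least 2-fold higher in Plin1-only nuclei of taPVAT, where 10% of genes were, and 7 of 9 in BAT, where 12.2% were. These were Adipoq, Lep, Rarres2, Retn, Cfd, Nampt and Adipor2 in both. In BAT, Retn was 8.06-fold, Rarres2 5.48-fold, Adipoq 4.75-fold, Cfd 3.18-fold, Adipor2 2.93-fold and Nampt 2.84-fold higher, while 105 Lep UMIs fell in Plin1-only nuclei and 1 in the others. In mesPVAT, 6 of 9 were higher (8.19% of genes). These were Lep (7.42-fold), Retn (6.44-fold), Adipor2 (3.91-fold), Adipoq (3.69-fold), Rarres2 (3.58-fold with 3 UMIs assumed on the lower side, 5.37-fold on its 15 and 2 UMIs) and Cfd (3.46-fold). Of the 7 genes higher in Plin1-only nuclei of both brown depots, Nampt alone was not higher in those of mesPVAT. It was at 0.409 of the level in the other classes (0.149 to 1.04, on 8 UMIs), and this ratio turned above 1 in the second sublibrary alone. Lepr was also lower in mesPVAT, at 0.440 (0.158 to 1.15, on 8 UMIs), and Adipor1 was at 0.715 (0.165 to 3.11, on 5 UMIs). In RP fat, only 2 genes had enough UMIs and neither was past 2-fold (9.72% of genes).

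Free RNA in the suspension can give UMIs in nuclei that do not express a gene. The share in Ptprb-only nuclei is given beside that in Plin1-only nuclei, and whether the Ptprb-only share measures free RNA was not tested. In mesPVAT, Ptprb-only nuclei held 1742 CPM of the adipocyte list, beside 2068 CPM of the endothelial list without Ptprb. In BAT, Adipoq was found in 31.3% of Plin1-only nuclei (median 2045 UMIs) and 5.38% of Ptprb-only nuclei (median 1109 UMIs), and Retn in 33.3% and 3.48%. In mesPVAT, Lep was found in 12.4% of Plin1-only nuclei (median 529.5 UMIs) and 1.68% of Ptprb-only nuclei (median 475.5 UMIs), and Adipoq in 11.3% and 3.78%. The Plin1-only shares were above the Ptprb-only shares for these genes. For Nampt in mesPVAT the Plin1-only share was not, at 1.5% and 2.52%.

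**Figure D3:**
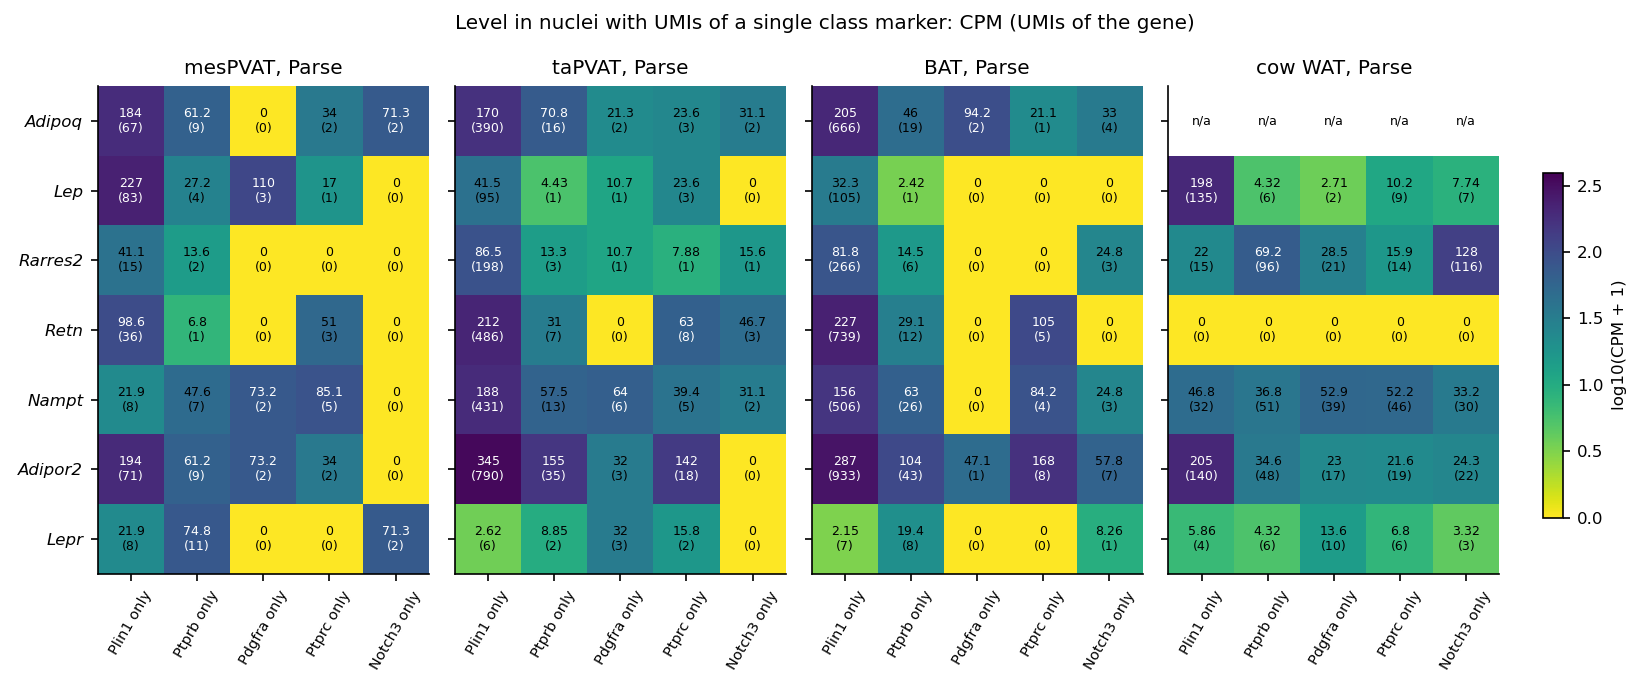
Level in CPM, with the number of UMIs in parentheses, of 7 of the genes in nuclei with UMIs of a single class marker (columns), in 4 Parse libraries, with colours for log10(CPM + 1). The adipokines shown are highest in the Plin1-only column of taPVAT and BAT, Nampt is not in mesPVAT, and cow RARRES2 is highest in the Notch3-only column.

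The receptors did not share a pattern. Adipor2, the adiponectin receptor linked to fatty acid oxidation, was at 273.9 CPM (259.7 to 288.7; 1397 UMIs) in taPVAT, 230.6 CPM (218.9 to 242.8; 1457 UMIs) in BAT, 98.4 CPM (83.9 to 114.7; 163 UMIs) in mesPVAT and 69.8 CPM (53.1 to 90.0; 59 UMIs) in RP fat. Each step of that order was beyond counting error (1.19-fold, 2.34-fold and 1.41-fold from the top). Adipor1, the receptor linked to AMP kinase, ran from 20.5 CPM in mesPVAT to 35.7 CPM in taPVAT, and no neighbours in its order differed beyond counting error. It was above mesPVAT in taPVAT (1.74-fold, 1.20 to 2.59) and in BAT (1.47-fold, 1.02 to 2.19). Against RP fat, taPVAT (1.44-fold, 0.912 to 2.38) and BAT (1.22-fold, 0.774 to 2.01) lay within counting error. Within BAT, Adipor1 was lower in Plin1-only nuclei, at 21.5 CPM (70 UMIs), than in the other single-marker nuclei (0.405-fold, 0.263 to 0.637), with 67.8 CPM (45.1 to 98.0; 28 UMIs) in Ptprb-only nuclei. The same ratio in taPVAT was 0.563 (0.342 to 0.956), so the adiponectin receptors fell on opposite sides of 1 in the brown depots.

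Lepr, the leptin receptor, was higher in both white depots than in both brown ones, as were 66% of genes. It was at 42.6 CPM (29.8 to 59.0; 36 UMIs) in RP fat, 36.8 CPM (28.2 to 47.3; 61 UMIs) in mesPVAT, 6.67 CPM (4.62 to 9.32; 34 UMIs) in taPVAT and 5.07 CPM (3.46 to 7.15; 32 UMIs) in BAT. MesPVAT was 5.52-fold above taPVAT (3.57 to 8.67), while the order within the white pair (1.16-fold, 0.744 to 1.78) and within the brown pair (1.32-fold, 0.788 to 2.20) was within counting error. At 200 UMIs per nucleus, 0.870% of RP nuclei and 0.739% of mesPVAT nuclei held Lepr, against 0.159% in taPVAT and 0.106% in BAT. Nuclei positive for Lepr held the endothelial marker, and other markers of non-adipocytes, more often than nuclei in general. In BAT, 16 of 28 (57.1%) held Ptprb, beside 26.2% of all nuclei, in taPVAT 14 of 32 (43.8%), beside 21.8%, and in mesPVAT 20 of 60 (33.3%), beside 12.5%. Notch3 was held by 21.4% in BAT, 28.1% in taPVAT and 13.3% in mesPVAT, beside 8.15%, 8.20% and 3.96% of all nuclei, and Pdgfra in taPVAT by 31.2%, beside 6.72%. Plin1 was held by 60.7%, 62.5% and 23.3% of the Lepr-positive nuclei, beside 69.1%, 60.4% and 22.0% of all nuclei. Lepr-positive nuclei were deeper than negative ones, at medians of 2327 and 1701 UMIs in BAT, 1923 and 1240 in taPVAT and 589.5 and 343 in mesPVAT. The shares were not matched for depth, and its part in them was not tested. In Ptprb-only nuclei Lepr was at 74.8 CPM (11 UMIs) in mesPVAT, 3.59-fold above the other single-marker nuclei there (1.38 to 9.42), and at 19.4 CPM (8 UMIs) in BAT, 8.34-fold above the others (2.73 to 25.5). In taPVAT it was highest in Pdgfra-only nuclei, at 32.0 CPM on 3 UMIs, with 8.85 CPM on 2 UMIs in Ptprb-only nuclei. Its Plin1-only level was 21.9 CPM (8 UMIs) in mesPVAT, 2.62 CPM (6 UMIs) in taPVAT and 2.15 CPM (7 UMIs) in BAT, so the gap between the library labelled mesPVAT and brown fat was also seen there (10.2-fold over BAT, 3.23 to 33.0).

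Other genes of the same pathways were counted from lists, to be read beside the 4.34% of all genes past 2-fold higher in brown and the 50.6% past 2-fold higher in white. Of 16 other secreted factors of fat with enough UMIs, 3 were at least 2-fold higher in brown fat and 5 in white (median log2 -0.03). Nrg4, a neuregulin released by brown adipocytes, was at 455.7 CPM in taPVAT and 406.9 CPM in BAT against 56.1 and 55.6 CPM in mesPVAT and RP fat. Vegfa, the endothelial growth factor, was at 1499 and 1373 CPM against 460.5 and 222.4 CPM, and Rbp4, the retinol carrier, was at 56.7 and 43.2 CPM against 11.5 and 17.7 CPM. Those higher in white were Itln1, Serpina12, Lcn2, Gdf15 and Apela, of which Itln1, the intelectin known as omentin, reached 33.1 CPM in RP fat and 12.1 CPM in mesPVAT against 2.75 and 2.06 CPM in taPVAT and BAT. Itln1 is also made by mesothelium, whose 6 markers summed to 83.99 CPM in RP fat, 103.8 in mesPVAT, 22.7 in taPVAT and 9.97 in BAT (Krt19 at 0), and the part of these cells in the result was not tested.

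Of 9 other receptors and binding proteins, Insr was higher in brown fat (2.05-fold) and Cmklr2, another chemerin receptor, in white (22.9 and 20.1 CPM against 4.71 and 4.91 CPM). Cmklr1, the main chemerin receptor, was at 51.9 CPM in mesPVAT, 50.9 in RP fat, 46.5 in taPVAT and 25.6 in BAT. Of 12 genes of leptin and adiponectin signalling, 3 were at least 2-fold higher in brown and 0 in white. Prkaa2, a catalytic subunit of AMP kinase, was at 185.9 and 164.0 CPM in taPVAT and BAT against 36.8 and 37.9 CPM in the white depots, and Ptpn1, a phosphatase that dampens leptin and insulin signals, and Stk11, the kinase upstream of AMP kinase, were just past 2-fold. Of 6 genes of adiponectin assembly and transcription, Pparg, the nuclear receptor that drives adipocyte differentiation, was 5.45-fold higher in brown and Cebpb 2.35-fold. In NAD salvage, beside Nampt, Sirt3, the mitochondrial deacetylase that uses NAD, was 3.09-fold higher in brown, while Nmnat2 was 5.51-fold higher in white. In alternative complement, beside Cfd, 1 of 4 genes was past 2-fold, Cd55, higher in white.

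The genes most like a member were found by the correlation of log levels over 20 points, which were the class sums of the 4 rat Parse libraries, among 11046 genes. Highest for Retn were G0s2 (r = 0.86), an inhibitor of lipolysis, Pnpla3 (0.83), a lipid droplet enzyme, and Myo19 (0.81). For Rarres2 they were Nsun7 (0.89), Aqp7 (0.88), the glycerol channel of adipocytes, and Kifc2 (0.87). For Adipoq, Srebf1 (0.83), the regulator of lipid synthesis, followed Pdcd7 and Zbtb38, and for Lep, Npr3 (0.79), the natriuretic peptide clearance receptor, stood among the first 3 with Pcbd1 and Asrgl1. The first 3 were Rai1, Ddhd1 and Rbmx for Cfd, and Pyroxd2, Tbc1d20 and Ptgr2 for Nampt. They were Fem1b, Azi2 and Psmc2 for Adipor1, Hacd2, Tnip1 and Atp2c1 for Adipor2, and Sh3yl1, Ptms and Hpgds for Lepr. Lep was at 0 in 9 of the 20 points, and Retn and Rarres2 each in 7. Pcbd1 and Asrgl1 rest on 150 and 139 UMIs. The points share libraries and depth, and these values are descriptions.

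The 10x library of mesPVAT gave other levels for most of the genes than the Parse library of that label. Besides chemistry, isolation and batch, the genome build and gene models differ between these tables (Rnor_6.0 with 25629 genes and GRCr8 with 38697 genes), and with exchanged files the depot would differ too, so the part of each cannot be told apart. Adipoq was at 890.5 CPM (838.7 to 944.6; 1102 UMIs), 12.2-fold above the Parse library (10.1 to 14.8), and Cfd at 711.9 CPM (881 UMIs), 20.7-fold above it (15.8 to 27.6). Adipor2 was at 408.1 CPM (4.15-fold), Lep at 303.8 CPM (3.79-fold), Adipor1 at 71.1 CPM (3.47-fold), Retn at 118 CPM (2.87-fold) and Rarres2 at 46.1 CPM (2.24-fold). In all, 7 of the 10 were at least 2-fold higher on 10x, where 20.9% of 13779 genes were. Nampt, at 44.4 CPM, was within counting error of the Parse level (1.13-fold, 0.776 to 1.65), Lepr, at 19.4 CPM, was at 0.527 of it (0.314 to 0.857), and Apln was past 2-fold lower on 2 and 9 UMIs (37% of genes). Plin1 went the other way from adiponectin, at 659 CPM on 10x and 0.512 of the Parse level. The list of 10 general adipocyte markers, which includes Plin1, did not, and summed to 10224 CPM on 10x and 3905 CPM on Parse. The mesothelial list summed to 898.6 CPM on 10x (5 of 6 genes matched) and 103.8 CPM on Parse, and its part in these differences was not tested.

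In the 10x library the adipokine UMIs were also found in nuclei with a single other class marker, most of which also held much of the adipocyte list. Adiponectin was at 1086 CPM (208 UMIs) in the 646 Plin1-only nuclei, 812.1 CPM (23 UMIs) in Ptprb-only, 681 CPM (5 UMIs) in Notch3-only and 550.4 CPM (11 UMIs) in Ptprc-only nuclei, with 91.6 CPM (2 UMIs) in Pdgfra-only nuclei, and 24.8% and 19.3% of Plin1-only and Ptprb-only nuclei held it (median 248 and 194 UMIs). Of the 907 Adipoq-positive nuclei, 17.9% held Plin1, beside 11.4% of all nuclei. The adipocyte list, without Plin1, summed to 2976 to 7764 CPM in the other classes there, against 15490 CPM in Plin1-only nuclei. It summed to 3743 CPM in Ptprb-only nuclei, beside 3566 CPM for the endothelial list without Ptprb, to 3853 CPM in Ptprc-only nuclei, beside 3553 CPM for the immune list without Ptprc, and to 7764 CPM in Notch3-only nuclei, beside 681 CPM for the mural list without Notch3. These classes are therefore given by their marker only. Pdgfra-only nuclei differed, with 2976 CPM of the adipocyte list beside 18179 CPM of the stromal list without Pdgfra. Only 4 of 7 genes were past 2-fold in Plin1-only nuclei (13.7% of genes), namely Lep (4.25-fold), Retn (3.78-fold), Adipor2 (2.50-fold) and Adipoq (2.05-fold), and this count was 0 when all nuclei with a Plin1 UMI were set against all without. In Plin1-only nuclei the 10x over Parse ratio was smaller than over all nuclei but past 2-fold for Cfd (10.3-fold, 6.91 to 15.9), Adipoq (5.92-fold, 4.47 to 7.92) and Adipor2 (2.98-fold). It was not smaller for Adipor1 (3.81-fold, 1.19 to 14.2, on 10 and 5 UMIs) or Nampt (1.19-fold, 0.307 to 4.13), and Lepr was at 0.477 of the Parse level on 2 and 8 UMIs (0.0493 to 2.39). Lep (1.93-fold, 1.41 to 2.65) and Retn (1.48-fold, 0.872 to 2.50) were under 2-fold.

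**Figure D4:**
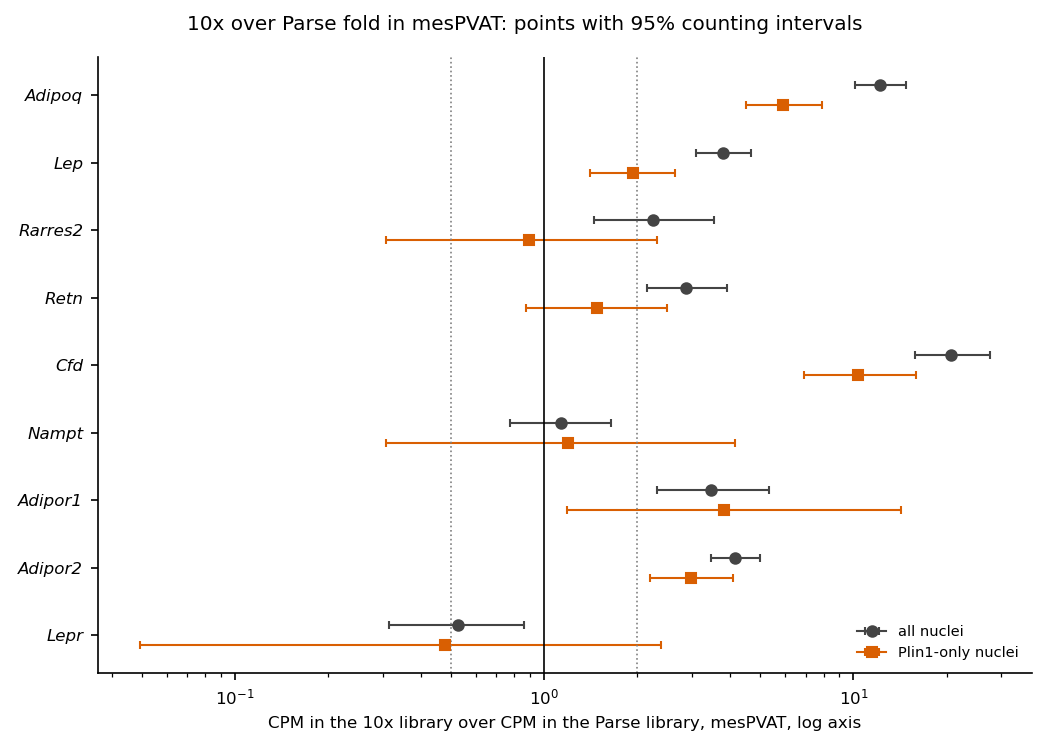
Ratio of the CPM in the 10x library to the CPM in the Parse library of mesPVAT on a log axis, for all nuclei (circles) and Plin1-only nuclei (squares), with 95% counting intervals and dotted lines at 2-fold up and down. Adipoq and Cfd lie furthest to the right in both, Nampt lies near 1 and Lepr lies below 1 over all nuclei.

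In cow WAT leptin and the receptor ADIPOR2 were higher in Plin1-only nuclei than in other single-marker nuclei, and chemerin was highest in Notch3-only nuclei. LEP was at 39.5 CPM (36.6 to 42.6; 665 UMIs) over all nuclei and at 197.6 CPM (135 UMIs) in the 111 Plin1-only nuclei, 32.2-fold above the other single-marker nuclei (20.8 to 52.0). Its UMIs were concentrated, since 10 nuclei held 37.7% of them and 1 nucleus of 62710 UMIs held 43. Of the 665 LEP UMIs, 135 lay in Plin1-only and 24 in other single-marker nuclei. LEP-positive nuclei were deep, at a median of 16266 UMIs against 3328 in negative ones. Of the LEP-positive nuclei, 73.1% held PLIN1, 45.6% PTPRC, 43.75% PTPRB, 43.75% PDGFRA and 35% NOTCH3, and the part of depth in this was not tested. ADIPOR2 was 7.56-fold higher in Plin1-only nuclei (5.83 to 9.83), and LEP and ADIPOR2 were the 2 of 6 genes past 2-fold there, where 11% of genes were. Of its 1569 UMIs, 140 lay in Plin1-only and 106 in other single-marker nuclei, and 10 nuclei held 24.1%. Of the ADIPOR2-positive nuclei, 49.2% held PLIN1, 47.5% PTPRB, 39.4% PTPRC, 37.4% PDGFRA and 33.8% NOTCH3. Their median depth was 9987 UMIs against 3021 in negative ones. RARRES2 was at 43.1 CPM (40.1 to 46.4; 726 UMIs) over all nuclei. It was at 22.0 CPM (15 UMIs) in Plin1-only nuclei and at 128.3 CPM (106 to 153.9; 116 UMIs) in the 231 Notch3-only nuclei, a ratio of 5.84 that was chosen after the values were seen. It was also higher in Ptprb-only nuclei, at 69.2 CPM (96 UMIs), 1.34-fold above the other single-marker nuclei (1.03 to 1.73). Pdgfra-only nuclei held it at 28.5 CPM (21 UMIs) and Ptprc-only nuclei at 15.9 CPM (14 UMIs). Of the RARRES2-positive nuclei, 48.5% held PTPRB, 49.8% NOTCH3, 30.9% PDGFRA, 23.6% PLIN1 and 27.25% PTPRC. The shares of all nuclei were 32.5%, 26.2%, 23.3%, 17.5% and 26.25%. RARRES2-positive nuclei were deeper, at a median of 6551 UMIs against 3029 in negative ones, and the part of depth in these shares was not tested. In BAT the Rarres2 level had the reverse order, with 24.8 CPM (3 UMIs) in Notch3-only and 81.8 CPM (266 UMIs) in Plin1-only nuclei. The mural list summed to 3067 CPM in the Notch3-only nuclei of cow and to 216 to 485 CPM in its other classes.

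The other cow genes were low or showed no adipocyte pattern. RETN was at 3 UMIs in 16827260 (0.178 CPM), none in a nucleus with a single class marker, and CFD at 1.66 CPM (28 UMIs). NAMPT was at 49.1 CPM (45.8 to 52.6; 826 UMIs), with a ratio of Plin1-only to other single-marker nuclei of 1.10 (0.731 to 1.62). LEPR, at 6.95 CPM (117 UMIs), was highest in Pdgfra-only nuclei at 13.6 CPM (10 UMIs), 2.75-fold above the other classes (1.14 to 6.22). ADIPOR1 was at 14.0 CPM (235 UMIs), ADIPOR2 at 93.2 CPM (1569 UMIs) and APLN at 1.31 CPM (22 UMIs) over all nuclei. Differences between the cow and rat values cannot be told apart from those of species, annotation, sex and depot.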

How the data were processed

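RNA of single nuclei was measured in 6 libraries, 1 per condition, grouped by their labels. The authors deposited raw counts, without normalization: UMIs per gene and barcode called as a cell, from Cell Ranger 7.1.0 for 10x Genomics (Rnor_6.0 per the supplementary methods) and from split-pipe for Parse (GRCr8 in rat). The study's own later filters on nuclei and doublets were applied after these files, and doublets were neither called nor removed here. The main values use all deposited nuclei, with the study's fixed filters as an alternative. Depth ran from 845316 to 16827260 UMIs per library.

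The tools were pandas 2.3.3, SciPy 1.17.1, NumPy 2.4.6 and Matplotlib 3.10.9 in Python 3.11.15. UMIs were summed over nuclei and scaled to CPM, with exact Poisson intervals, exact binomial (Clopper-Pearson) intervals for shares and exact conditional binomial intervals for folds, at 95%. A gene was counted past 2-fold by size alone, with at least 10 UMIs in the sums together and at least 3 UMIs assumed on the lower side. Plin1-only and other single-marker nuclei held at least 1 UMI of that class marker and none of the other 4. The brown against white call and the fold interval were tested on simulated library sums without a shift over all genes. The class rule, thinning and scaling were not tested in this way. All 10 genes, the class markers and listed pathway genes past 2-fold were named. The genes and lists were chosen with earlier results of these data known. The alternatives were filters on nuclei, other scalings, single sublibraries, other class rules and other fold thresholds. Promoter sequences came from RefSeq on GRCr8, where 9 of the 10 genes had an entry.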

Additional observations from a re-analysis of the deposited data

How the results depend on the processing

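No paired analysis was possible because each condition had 1 library and no result came from a test. Of 114 recomputed counts of genes past 2-fold, 95 stayed within 1.5 times the reported count and 19 moved, and the cause was not tested. The count of Plin1-only genes in the 10x library (4) was 2 without the 1% of nuclei with the most UMIs, 1 with each nucleus weighted equally, 0 with all Plin1 nuclei against the rest and 2 at a 3-fold threshold. In RP fat (0) it was 1 in sublibrary 1, 3 with all Plin1 nuclei and 1 at 1.5-fold. The count higher in brown (5) was 3 at 3-fold. The count higher in white (2) was 0 with median-of-ratios scaling, 1 in sublibrary 2 and 1 at 3-fold. Between taPVAT and BAT (1) it was 0 in either sublibrary alone and at 3-fold. Between mesPVAT and RP fat (2) it was 5 in nuclei with at least 500 UMIs, 4 in sublibrary 2 and 4 at 1.5-fold. Between platforms (8) it was 5 in nuclei with at least 500 UMIs and 5 at 3-fold.

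Of 648 recomputed folds, 40 moved beyond their counting interval and 2 changed direction. For the 51 folds past 2-fold, 31 of 412 recomputed values were under 2-fold. Levels moved in 60 of 393 and shares of nuclei in 121 of 363. The folds that changed direction were both for Nampt in Plin1-only against other nuclei of mesPVAT, which came to log2 0.56 in sublibrary 2 alone and 0.12 with all Plin1 nuclei against the rest. The brown over white fold of Cfd fell under 2-fold with the fixed filters of the study (log2 0.96), in nuclei with at least 500 UMIs (0.89) and in sublibrary 2 (0.67). In Plin1-only nuclei of mesPVAT, Rarres2 (log2 0.03) and Cfd (0.81) fell under 2-fold when a class marker needed 2 UMIs. Folds in Plin1-only nuclei were added as alternatives after the data were seen. They were recomputed under filters on nuclei, in single sublibraries and with a class marker from 2 UMIs, but under no other scaling. Their ranges below therefore leave out the effect of scaling. Lep in mesPVAT over the higher brown library ranged from 5.17 to 5.78, and Adipoq from 0.822 to 0.983. Nampt in the lower brown library over mesPVAT ranged from 3.91 to 9.66, and Retn from 1.55 to 3.98. Retn was under 2-fold in sublibrary 2 (1.55), in nuclei with at least 500 UMIs (1.79) and with a class marker from 2 UMIs (1.90). Cow RARRES2 in Notch3-only over Plin1-only nuclei ranged from 3.95 to 8.61. Depth limits the white rat libraries most, where 3 UMIs are 3.55 CPM in RP fat against 0.475 CPM in BAT.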
